A study of Mus musculus with 12 samples.

Results

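The report describes how far the response of follicular (FO) B cells to CpG and IFNα together departed from the sum of the responses to each stimulus alone. FO B cells were sorted from the spleen of C57BL/6 mice aged 10 weeks, and RNA was counted in 12 samples from 4 groups of 3. A group was unstimulated, and the others were kept for 12 h with CpG at 1 μg/mL, with IFNα at a dose of 0.1 μg/mL, or with the combination. The sources used here give CpG in the combination as 1 μg/mL in some places and as 0.1 μg/mL in another. If the lower value held, the dose of CpG and the interaction cannot be told apart. The sort kept B220-high AA4.1- CD23+ CD21-intermediate cells, and the labels name no allele or transgene for any group. All 12 samples entered each value, and 9431 of 22561 genes in the deposited table had enough counts to be tested. It is not stated whether the unstimulated cells spent 12 h in culture, so that in every comparison with them the stimulus and the culture cannot be told apart, and the sources do not say whether the 3 samples of a group, numbered alike in every group, came from separate mice, so that p-values measure the spread between these samples.

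IFNα binds the type I interferon receptor, and the JAK kinases then activate the STAT and IRF9 complex that switches on interferon-stimulated genes (ISGs) through the interferon-stimulated response element in their promoters. CpG, a synthetic DNA oligonucleotide, is sensed by TLR9 in the endosome, which signals through MyD88 to NF-κB and the AP-1 factors and drives B cells out of rest. When stimuli multiply a gene's level independently, their log2 effects add up, and the difference between the effect of IFNα with CpG and its effect without CpG is 0. This difference is called the interaction here. A value above 0 means that IFNα raised the gene more, or lowered it less, when CpG was present.

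The libraries held between 922450 and 2923865 unique molecular identifier (UMI) counts per sample, from an unstimulated sample to a CpG + IFNα sample. Values for single samples are CPM, counts scaled to a common library size with TMM factors. The rRNA gene and the sums of markers are the exception, being scaled by total counts without TMM factors. Counts came from the 3′ end of transcripts, so that they do not grow with transcript length. Mitochondrial genes took 5.91% to 8.52% of counts in the 6 samples without CpG and 2.99% to 4.85% in the 6 with CpG. One annotated rRNA gene took 31384 CPM in IFNα sample 2 and 28792 CPM in CpG + IFNα sample 2, against 5190 to 18092 CPM in the other 10 samples. The 8 markers of follicular B cells were all detected in every group, with a sum of 16263 to 20190 CPM without CpG and 5259 to 6417 CPM with it. In bulk RNA, fewer cells of a type and less RNA per cell cannot be told apart.

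The interaction was called for 590 genes, 6.26% of those tested, by edgeR's quasi-likelihood test. A call needed a log2 interaction over 1 in size with p adjusted by Benjamini-Hochberg below 0.1. It was above 0 for 291 genes (3.09% of those tested) and below 0 for 299 (3.17%). The median over all genes tested was -0.05 on the log2 scale, with quartiles of -0.38 and 0.28 and a median standard error of 0.29, and 2126 genes had an unadjusted p under 0.05. Of the 590 genes, 295 stayed called in each of 12 fits that left out 1 sample, 163 above 0 and 132 below. The balance between directions moved with the scaling. Above 0 lay 49.3% of the called genes with TMM factors, 58.8% with library size only, 59.4% without rRNA and mitochondrial genes and 60.7% without the filter on low counts. Without IFNα sample 2, 721 genes were called.

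The 590 genes were sorted by what IFNα did in each background. Without CpG, IFNα raised 430 genes (4.56%) and lowered 384 (4.07%), and with CpG it raised 278 (2.95%) and lowered 190 (2.01%). Among the 291 genes above 0, the largest class of 152 was lowered by IFNα without CpG and was not called with it, 35 were raised only with CpG, 24 were raised in both backgrounds, 9 were lowered without CpG and raised with it, 3 were lowered in both, and 68 were called in neither. Among the 299 genes below 0, 114 were raised only without CpG, 71 were lowered only with CpG, 12 were raised in both, 1 was raised without CpG and lowered with it, and 101 were called in neither. The most frequent form of departure was thus a change between unstimulated and IFNα-treated cells that had no called counterpart between CpG and CpG + IFNα.

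**Figure D1:**
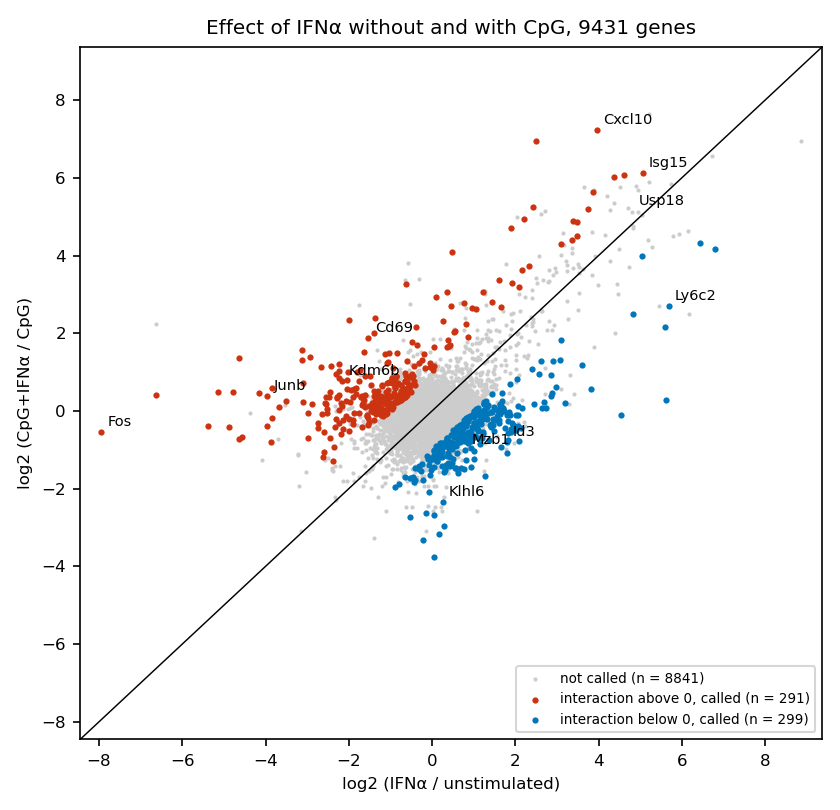
Each point is 1 of 9431 genes, with the log2 effect of IFNα against unstimulated cells on the x axis and the log2 effect of CpG + IFNα against CpG on the y axis. Genes with a called interaction lie off the diagonal of equal effects, 291 above it (red) and 299 below it (blue), and Fos lies farthest to the left, with a value of -7.95 on the x axis and -0.54 on the y axis.

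For 141 of the 590 genes a single group stood apart, being called against each of the other 3 while these 3 were not called against each other. The group apart was the unstimulated one for 63 genes, high for 41 and low for 22, and the IFNα group for 49 genes, high for 24 and low for 25. CpG alone stood apart high for 4 genes and low for 9, and CpG + IFNα stood apart high for 3 and low for 13. Over all genes tested, with or without a called interaction, the unstimulated group was apart for 77 genes high and 37 low, against 5 high and 25 low for CpG + IFNα. Without IFNα sample 2, the unstimulated group stood apart high for 74 of the called genes in place of 41, and IFNα stood apart low for 43 in place of 25.

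**Figure D2:**
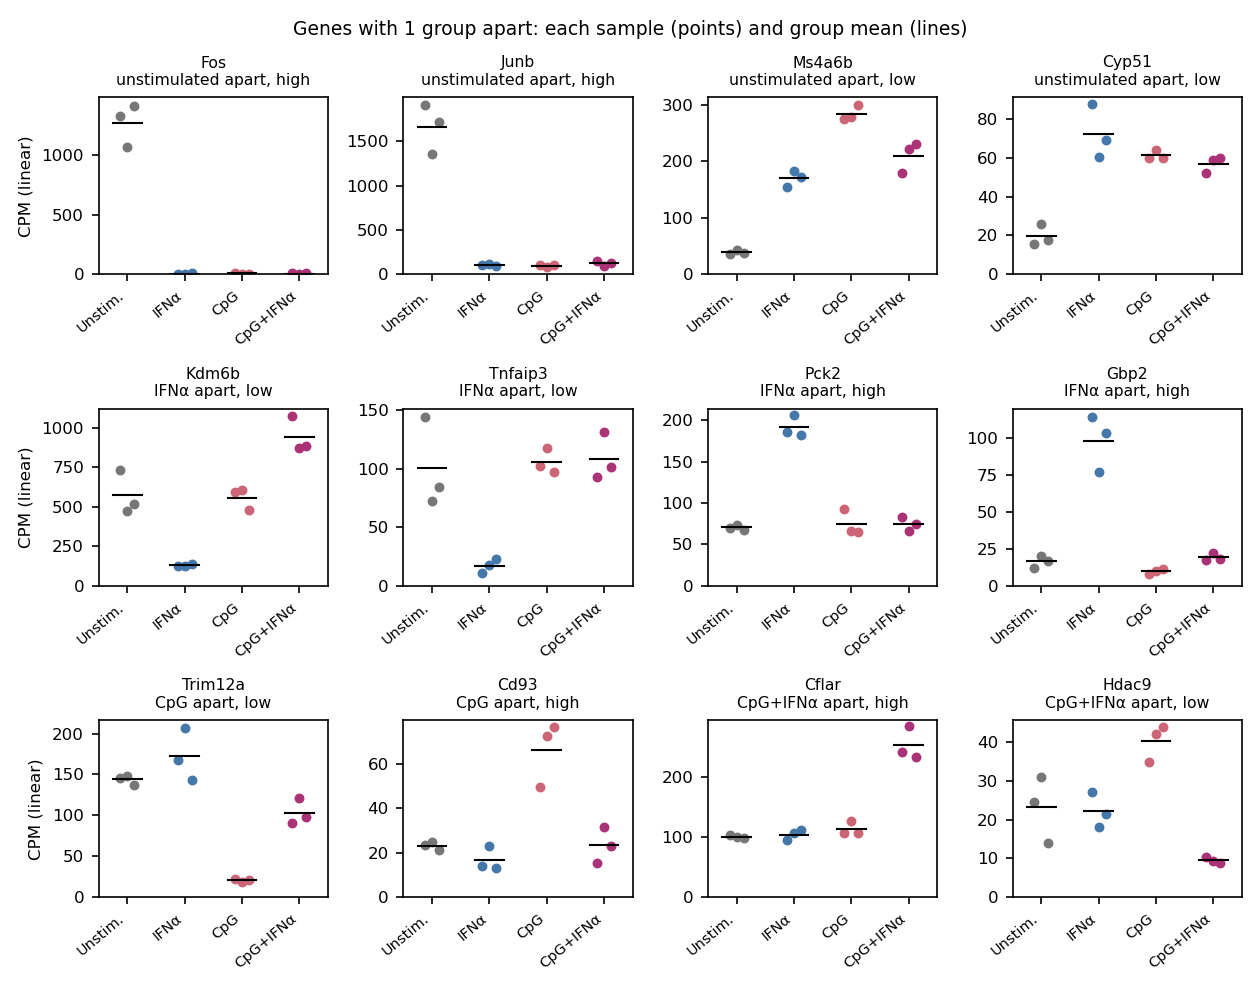
CPM on a linear axis for 12 genes in which 1 group stood apart, with a point for each of the 3 samples of each group and a line at their mean. In the panel of Fos the unstimulated samples lie between 1065 and 1415 CPM and no stimulated sample exceeds 9.21 CPM, and in the panel of Cflar the CpG + IFNα samples lie between 234 and 286 CPM, above all others.

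Genes high in unstimulated cells alone included Fos, Junb, Ppp1r15a, Nr4a1 and Nfkbid. Fos, a subunit of AP-1 (chromosome 12, 85473890 to 85477273 of GRCm38), had 1326, 1065 and 1415 CPM in the unstimulated samples, 5.04, 4.86 and 5.34 with IFNα, 9.21, 4.99 and 4.49 with CpG, and 5.45, 2.07 and 6.17 with CpG + IFNα. No stimulated sample came near the unstimulated ones, and the 3 stimulated groups overlapped. IFNα lowered Fos by -7.95 ± 0.21 (SE, log2) without CpG and the value with CpG was -0.54 ± 0.40, which gave an interaction of 7.41 ± 0.58 (adjusted p = 4.78e-11, edgeR). The sum of the single effects would put the combined stimulus below any level that these libraries can count. A value above 0 was thus set in advance for this gene, and 7.41 is not a measured size of departure.

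Junb, another AP-1 subunit, had 1905, 1356 and 1716 CPM in unstimulated cells, 103, 119 and 96.2 with IFNα, 100, 75.6 and 103 with CpG, and 147, 92.1 and 129 with both. Its interaction was 4.34 ± 0.22 (adjusted p = 9.5e-16, edgeR). Ppp1r15a, the stress-induced regulatory subunit that directs a phosphatase to eIF2α, had 549, 340 and 526 CPM in unstimulated cells, 34.3, 33.4 and 31.3 with IFNα, 41.7, 39.9 and 40.4 with CpG, and 64.9, 67.3 and 51.4 with both, and an interaction of 4.44 ± 0.24 (adjusted p = 4.45e-15). In both genes all unstimulated samples lay above all stimulated ones. The stimulated groups overlapped in Junb but not in Ppp1r15a, where CpG + IFNα was the highest of them.

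Of the genes high in unstimulated cells alone, 23 had a RefSeq promoter. The 250 bases before the start held the cAMP response element TGACGTCA in 5 of them. This element binds CREB and ATF factors. Among the genes tested, 7234 had such a promoter and 3.36% of them held it. The matches of these genes are shown because they share the shape, each on its own strand from 5′ to 3′ with the match in capitals and its window in GRCm38.p6.
Ppp1r15a, chr7:45526269-45526295: accccgcctctccggTGACGTCAgcac
Nfkbid, chr7:30422340-30422377: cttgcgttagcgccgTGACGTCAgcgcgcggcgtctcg
Plk2, chr13:110394967-110395004: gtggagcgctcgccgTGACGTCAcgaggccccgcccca
Csf2ra, chr19:61228488-61228525: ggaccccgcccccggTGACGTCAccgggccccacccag
Rab5a, chr17:53479191-53479228: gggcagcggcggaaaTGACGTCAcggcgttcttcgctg
The element is the same read from either strand. A match is a description of letters, and binding was not measured.

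Immediate-early genes, which respond to stimuli within minutes without new protein synthesis, showed the same direction as a list. Of 30 members tested, 20 had a called interaction above 0 (3.09% of all genes) and 0 below (3.17%), and 27 of 30 values were positive, with a median of 1.84 against -0.05 over all genes tested. The median was 1.75 with the groups at the limit of detection set to that limit, which is 3 counts per sample. IFNα without CpG lowered 22 of the 30 (4.07% of all genes) and raised 0 (4.56%), and with CpG it lowered 1 (2.01%) and raised 3 (2.95%). All stimulated groups were called lower than unstimulated cells for 21 of the 30 and for 242 of all 9431 genes. The count was 18 to 22 of 30 or 31 tested when any sample was left out.

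Within the list the level under CpG set members apart. Jun had 1026, 556 and 1054 CPM in unstimulated cells, 57.5, 54.1 and 35.9 with IFNα, 115, 133 and 128 with CpG, and 154, 184 and 178 with both, so that the CpG groups lay between the other 2 without overlap. Its interaction was 4.63 ± 0.26 (adjusted p = 4.49e-15, edgeR). Zfp36, which speeds the decay of cytokine mRNAs, stepped down instead, from 733, 727 and 857 CPM to 261, 248 and 251 with IFNα, and to 9.21, 11.4 and 16 CPM with CpG and 12, 13.8 and 14.4 with both. Its interaction was 1.72 ± 0.26 (adjusted p = 2.24e-05). Klf6, a zinc finger factor, and Dusp2, a phosphatase of MAP kinases, also had their lowest means in the groups with CpG, with interactions of 2.29 ± 0.32 and 1.79 ± 0.16. Egr3, Fosb and Nr4a2 had a group at the limit of detection, so that their fitted values are not reported as sizes.

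For Atf3, a stress-induced repressor, the combined level passed that of both single stimuli. It had 86.4, 10.7 and 15 CPM in unstimulated cells, 7.06, 3.65 and 3.05 with IFNα, 33.8, 26.4 and 37.9 with CpG, and 82.9, 84.2 and 80.7 with both. The first unstimulated sample stood well above the others of its group and overlapped with CpG + IFNα. The interaction was 4.44 ± 0.62 (adjusted p = 6.42e-06, edgeR) and stayed called when any sample was left out. Its size rests in part on that first unstimulated sample.

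Markers of other cells were read beside these genes. The myeloid and marginal zone sums were highest in unstimulated samples. The summed CPM of 8 myeloid markers was 13.7 to 39.0 in unstimulated samples and at most 17.0 elsewhere, and that of 7 marginal zone B cell markers was 585 to 713 in unstimulated samples, 174 to 211 with IFNα, 151 to 207 with CpG and 109 to 143 with both. The erythroid sum was 58.9 to 345 in unstimulated samples and 5.04 to 312 in the others. T and NK cell markers summed to at most 3.64 CPM, with Cd3g, Cd8a and Gzma at 0 in every group. The 6 plasmacytoid dendritic cell markers, which include the ISG Bst2, summed to 348 to 429 CPM in unstimulated samples, 1348 to 1601 with IFNα, 255 to 303 with CpG and 1165 to 1377 with both, with Siglech at 0 throughout. Their part in the results was not tested.

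A second set of transcripts high in unstimulated cells was found after the values were seen. Of the 41 genes apart high in unstimulated cells, 26 were protein coding and 13 belonged to the annotation class TEC, single loci whose transcripts await experimental support. Among the TEC genes that passed the filter on low counts, 29 of 157 had an interaction above 0 (18.5%, against 3.09% of all genes) and 3 below. The filter can be passed through a single group, and a gene that passed only where it is high had to differ. Without the filter 43 of 1276 TEC genes were above 0 (3.37%, against 1.8% of all genes with a count) and 4 below. With DESeq2 20 of 1276 were above 0 (1.57%, against 1.1%) and 1 below, so that the difference between the shares was much smaller than among the genes that passed the filter. The annotation places 113 of the 157 inside an intron of a protein-coding gene on the same strand, and 27 of these had a called interaction above 0.

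Over all 1424 TEC genes of the table, tested or not, the summed CPM was 4701, 4110 and 5127 in the unstimulated samples, 2250, 4143 and 2538 with IFNα, 1552, 1793 and 1808 with CpG, and 1559, 2322 and 2117 with both. IFNα sample 2, which also had the most rRNA counts, lay within the unstimulated range, and IFNα sample 1 lay below CpG + IFNα sample 2. Gm43362, within an intron of Srsf11, had 48.2, 49.2 and 47.7 CPM in unstimulated cells, 10.1, 17 and 12.2 with IFNα, 13.5, 15 and 11 with CpG, and 15.8, 16.2 and 21.1 with both, and an interaction of 2.26 ± 0.33 (adjusted p = 1.18e-05, edgeR).

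Host genes were set beside the TEC loci they contain. Of the 26 intronic TEC genes above 0 whose host was tested, 0 had a host with a called interaction above 0, a count near the 3.09% of all genes. Over the 109 intronic TEC genes with a tested host, which lay in 90 distinct hosts, the median interaction was 0.96 for the TEC genes and 0.03 for the hosts. These TEC genes had passed the filter on low counts, which a single high group can satisfy. How far that choice raised their median was not tested. The number of TEC genes above 0 rested on single samples. It was 63 of 177 tested without IFNα sample 2, 44 of 181 without CpG + IFNα sample 1 and 18 of 182 without CpG + IFNα sample 2. The sources used here do not state whether the counting used strand, and the part of the rRNA counts in this result was not tested.

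**Figure D3:**
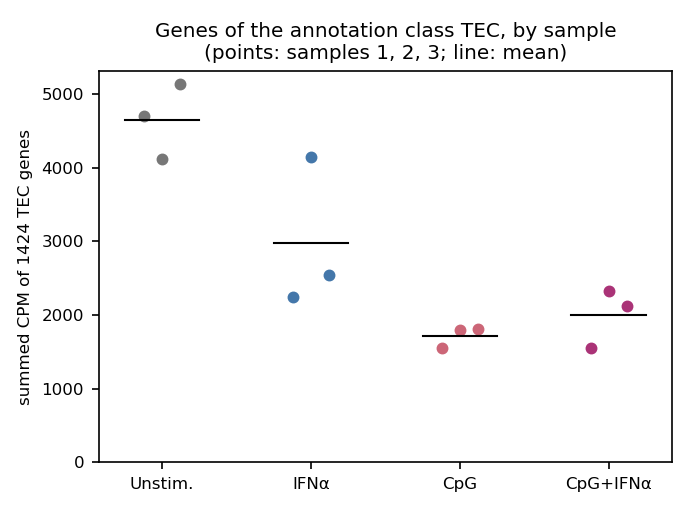
Summed CPM of all 1424 genes of the annotation class TEC (y axis) in the 3 samples of each group (points) with the group mean (line). The unstimulated samples lie between 4110 and 5127 CPM and the samples with CpG between 1552 and 2322 CPM, with IFNα sample 2 at 4143 CPM above the other IFNα samples.

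Genes low in unstimulated cells alone were the mirror of this shape. Ms4a6b, a membrane-spanning protein of the MS4A family (chromosome 19, 11516512 to 11531256), had 35.5, 42.8 and 37.9 CPM in unstimulated cells, 155, 183 and 172 with IFNα, 275, 279 and 301 with CpG, and 179, 221 and 231 with both. IFNα raised it by 2.14 ± 0.15 (SE, log2) without CpG, and the value with CpG was -0.44 ± 0.11, for an interaction of -2.58 ± 0.19 (adjusted p = 1.03e-11, edgeR). The CpG + IFNα samples lay below the CpG samples without overlap. Cyp51 and Sqle, enzymes of sterol synthesis, followed in this class, with interactions of -1.98 ± 0.26 and -1.76 ± 0.26.

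The cholesterol synthesis list lay on the other side of 0. Of 18 genes tested, 14 had a called interaction below 0 (3.17% of all genes) and 0 above (3.09%), and all 18 values were below 0, with a median of -1.49 against -0.05 over all genes tested. Without CpG, IFNα raised 11 of the 18 (4.56% of all genes) with a median of 1.04 on the log2 scale. With CpG it raised 0 (2.95%) and lowered 1 (2.01%), with a median of -0.33. CpG alone had a median of 0.72 and CpG + IFNα a median of 0.47 against unstimulated cells. Between 12 and 15 genes of the list were called below 0, out of 18 or 19 tested, when any sample was left out.

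Insig1, the membrane protein that holds the sterol sensor in the endoplasmic reticulum, had 80.1, 72.7 and 54.7 CPM, then 129, 159 and 142 with IFNα, 78.6, 87 and 78.9 with CpG, and 69.3, 55.5 and 67.3 with both. The IFNα samples lay above all others, and the interaction was -1.42 ± 0.20 (adjusted p = 8.22e-06, edgeR). Cyp51 showed another form, with 15.5, 25.7 and 17.6 CPM in unstimulated cells and 52.4 to 87.8 CPM in all 9 stimulated samples.

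Enzymes along the route had called values from -1.10 ± 0.27 for Sc5d to -2.38 ± 0.44 for Mvd. Members between them included Hmgcs1 at the entry of the mevalonate route (-1.54 ± 0.22), Fdft1 and Sqle at its branch to sterols (-1.92 ± 0.36 and -1.76 ± 0.26), and Msmo1 near its end (-2.09 ± 0.23). Srebf2, the transcription factor of the route, had -0.82 ± 0.17 and did not reach the required size. Hmgcs1 was the 1 gene of 12 with a promoter in the list that held the sterol regulatory element TCACNCCAC on either strand, against 1.05% of all promoters. It is shown with the match in capitals, from 5′ to 3′ on the gene's strand in GRCm38.p6.
Hmgcs1, chr13:119690199-119690237: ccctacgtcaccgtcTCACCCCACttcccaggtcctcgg

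**Figure D4:**
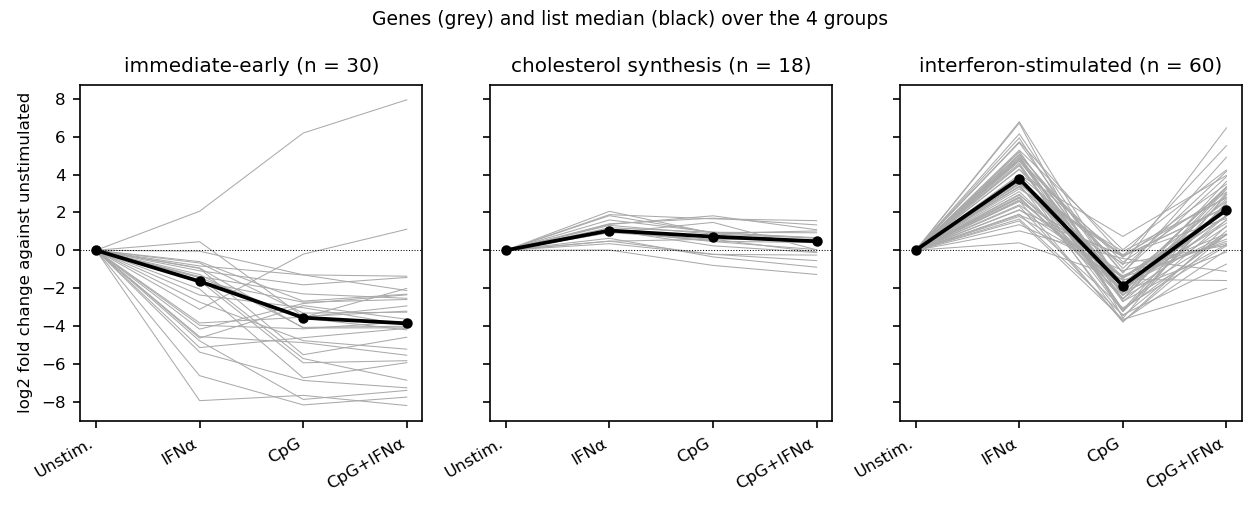
Log2 fold change against unstimulated cells (y axis) over the 4 groups for each gene (grey) and for the median (black) of the immediate-early, cholesterol synthesis and interferon-stimulated lists. The median of the immediate-early list falls to -1.64 with IFNα and stays at -3.56 and -3.86 with CpG and CpG + IFNα, that of the cholesterol list is highest with IFNα at 1.04, and that of the interferon-stimulated list is 3.78 with IFNα, -1.88 with CpG and 2.14 with both.

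In 25 genes the IFNα group alone was low. Kdm6b, a demethylase of histone H3 lysine 27 (chromosome 11, 69398508 to 69413675), had 731, 476 and 517 CPM in unstimulated cells, 126, 125 and 137 with IFNα, 592, 604 and 478 with CpG, and 1073, 870 and 888 with both. IFNα lowered it by -2.15 ± 0.15 (SE, log2) without CpG, whereas with CpG its value was 0.76 ± 0.13, for an interaction of 2.91 ± 0.19 (adjusted p = 8.19e-13, edgeR). Unstimulated and CpG samples overlapped. Tnfaip3, which encodes the ubiquitin editor A20 that restrains NF-κB, had 145, 72.7 and 84.7 CPM, then 11.1, 17.6 and 22.9 with IFNα, 103, 118 and 97.3 with CpG, and 92.7, 132 and 101 with both, and an interaction of 2.57 ± 0.30 (adjusted p = 2.3e-07). All groups but IFNα overlapped in this gene.

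Pim3, a serine kinase, and Ccr7, the receptor that guides B cells to the T cell zone, had the same shape with interactions of 2.07 ± 0.25 and 1.44 ± 0.19. The promoters of 4 of 16 genes with this shape held a match to the κB site, the sequence that NF-κB binds, against 10.5% of all promoters. The proximal windows of the pair with named roles in activation or cytokine production are given, read on the gene's strand from 5′ to 3′ with matches on either strand in capitals (GRCm38.p6).
Tnfaip3, chr10:19015411-19015550: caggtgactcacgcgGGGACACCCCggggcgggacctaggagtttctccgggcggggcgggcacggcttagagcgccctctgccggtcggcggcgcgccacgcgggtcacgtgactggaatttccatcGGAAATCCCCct
Ebi3, chr17:55952564-55952603: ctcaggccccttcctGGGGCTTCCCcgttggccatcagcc

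Myc, the growth regulator, and Sik1, a salt-inducible kinase, were lowered by IFNα only without CpG but differed between unstimulated and CpG groups. Myc had 225, 143 and 168 CPM in unstimulated cells, 48.4, 26.8 and 38.9 with IFNα, 572, 610 and 520 with CpG, and 755, 647 and 725 with both, and an interaction of 2.60 ± 0.22 (adjusted p = 3.78e-10, edgeR). IFNα samples were the lowest and CpG + IFNα samples the highest, with no overlap between any groups. Sik1 had 268, 235 and 175 CPM, then 14.1, 15.8 and 16.8 with IFNα, 68.2, 89.8 and 79.4 with CpG, and 76.4, 66.9 and 64.8 with both, and an interaction of 3.65 ± 0.24 (adjusted p = 8.19e-13).

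Cd69, which retains lymphocytes in tissue, had the smallest interaction p of all genes and changed direction. It had 548, 442 and 456 CPM in unstimulated cells, 176, 165 and 162 with IFNα, 62.6, 60.6 and 50.9 with CpG, and 222, 208 and 208 with both. IFNα lowered it by -1.53 ± 0.12 (SE, log2) without CpG and raised it by 1.88 ± 0.13 with CpG, for an interaction of 3.41 ± 0.17 (adjusted p = 9.5e-16, edgeR). No groups overlapped.

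NF-κB targets and subunits were examined next. Of 25 tested, 8 had a called interaction above 0 and 0 below, against 3.09% and 3.17% of all genes. Positive values were found for 24 of the 25, and the median was 0.78 against -0.05 over all genes. IFNα without CpG lowered 7 of them (4.07% of all genes) and with CpG raised 2 (2.95%). Lta, a cytokine of the TNF family, had 40.9, 37.4 and 40.6 CPM in unstimulated cells, 3.03, 5.47 and 4.58 with IFNα, 11.1, 14.3 and 9.49 with CpG, and 18, 19.7 and 18.5 with both, and an interaction of 3.83 ± 0.38 (adjusted p = 9.56e-09, edgeR). Cd40, the receptor for T cell help, and Cd83, a stabilizer of surface MHC class II and Cd86, had interactions of 1.43 ± 0.19 and 1.69 ± 0.24. Of the costimulation list, 5 of 14 genes were called above 0 (3.09% of all genes) and 0 below (3.17%). Among them was Cd86, with 58.8 to 87.4 CPM in unstimulated cells, 83.9 to 110 with IFNα, 3.49 to 6.75 with CpG and 28.3 to 38.3 with both, and an interaction of 2.24 ± 0.33.

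Among cytokines and chemokines that passed the filter on low counts, the called interactions lay above 0. Of 14 tested, 7 were above 0 and 0 below, against 3.09% and 3.17% of all genes, with a median of 1.58 against -0.05 over all genes, or 1.15 with 2 members' groups at the limit of detection set to that limit. The count was 4 without unstimulated sample 3 and 5 to 7 when any other sample was left out. A gene can pass the filter through a single group where it is high. Without the filter 7 of 23 were above 0 (30.4%, against 1.8% of all genes with a count), and with DESeq2 5 of 23 (21.7%, against 1.1%). Cxcl10, a chemokine for CXCR3-bearing T cells, had 2.73, 1.07 and 7.06 CPM in unstimulated cells, 55.5, 74.2 and 48.8 with IFNα, 3.07, 2.14 and 1.5 with CpG, and 319, 384 and 320 with both. Its interaction was 3.27 ± 0.69 (adjusted p = 0.00174, edgeR), and the CpG + IFNα samples lay far above the rest. The 150-base window of its promoter is shown because it holds both an interferon-stimulated response element, GAAANNGAAA, and κB sites, on either strand and in capitals, the last of them overlapping.
Cxcl10, chr5:92348968-92349117: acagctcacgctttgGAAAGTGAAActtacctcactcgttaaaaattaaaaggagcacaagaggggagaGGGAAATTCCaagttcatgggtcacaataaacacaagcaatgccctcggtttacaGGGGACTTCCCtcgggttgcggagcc
The element was held by 19 of 45 promoters of the interferon-stimulated list and by 253 of all 7234 promoters, and the κB site by 8 of 12 promoters of the cytokine list.

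Il6, which promotes antibody-secreting cells, had 5.46, 3.21 and 8.82 CPM in unstimulated cells, 5.04, 1.22 and 3.05 with IFNα, 180, 109 and 151 with CpG, and 397, 306 and 331 with both. IFNα raised it by 1.22 ± 0.14 (SE, log2) with CpG, whereas its value without CpG was -1.08 ± 0.60, for an interaction of 2.30 ± 0.63 (adjusted p = 0.0158, edgeR). The 6 samples without CpG were all below 9 CPM and overlapped. Ccl4, a chemokine, had 27.3, 5.35 and 6.18 CPM, then 12.1, 6.08 and 11.4 with IFNα, 67.5, 59.2 and 45.9 with CpG, and 203, 189 and 190 with both, and an interaction of 2.25 ± 0.47 (adjusted p = 0.00144). Il6, Ccl4 and Cxcl10 each lost the call in 1 of the 12 fits without 1 sample.

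CpG + IFNα was above both single stimuli for 36 genes (0.382% of those tested) and below both for 146 (1.55%). These compare stimulated groups within the fit of all 4 groups, and a fit of the stimulated groups alone gave 36 above and 126 below. A called interaction was found for 17 of the 36 above 0 (3.09% of all genes) and for 60 of the 146 below 0 (3.17%). The CpG + IFNα samples enter both calls in the same direction, so that part of this overlap was set by the choice of genes. Besides Cxcl10, Il6, Ccl4 and Atf3, the 17 genes, listed after their values were seen, included the receptors Tnfrsf10b and Epha2, the transcription regulators Cebpb, Tbx21, Id2 and Tcf7l2, and the cell cycle gene Ccnd2. Among genes with no group at the limit of detection, 23 were above both single stimuli.

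For 3 genes CpG + IFNα alone was high and the other groups were not called against each other. Cflar, which encodes the caspase-8 inhibitor c-FLIP (chromosome 1, 58711508 to 58758884), had 104, 101 and 98.8 CPM in unstimulated cells, 94.8, 106 and 111 with IFNα, 107, 128 and 108 with CpG, and 242, 286 and 234 with both. Neither single stimulus gave a called change, and the interaction was 1.11 ± 0.18 (adjusted p = 5.19e-05, edgeR). Ext1, an enzyme of heparan sulfate synthesis, had 1.53 ± 0.43, and 0.81 at equal depth, when every library was thinned to the lowest total, where it was not called. Without CpG sample 1, 5 genes had this shape.

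CpG + IFNα alone was low for 13 genes, a count of 7 or 8 without unstimulated sample 1 or 3, IFNα sample 1 or 3, or CpG + IFNα sample 1. Hdac9, a class IIa histone deacetylase, had 24.6, 31 and 14.1 CPM in unstimulated cells, 27.2, 18.2 and 21.4 with IFNα, 35, 42.1 and 43.9 with CpG, and 10.4, 9.31 and 8.74 with both, and an interaction of -2.02 ± 0.35 (adjusted p = 0.000141, edgeR). Its CpG + IFNα samples lay below all others. Stk26, a kinase of the STE20 family, and Ndufaf3, an assembly factor of respiratory complex I, had -1.29 ± 0.28 and -1.43 ± 0.36.

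Klhl6, a ubiquitin ligase adaptor of germinal centre B cells, was the gene below 0 in which IFNα acted only with CpG that had the smallest p. It had 95.5, 124 and 123 CPM in unstimulated cells, 145, 124 and 140 with IFNα, 64.5, 63.4 and 66.4 with CpG, and 10.4, 12.4 and 15.4 with both. IFNα gave 0.25 ± 0.13 (SE, log2) without CpG and lowered it by -2.34 ± 0.18 with CpG, for an interaction of -2.60 ± 0.22 (adjusted p = 3.78e-10, edgeR). Mzb1, a chaperone of immunoglobulin assembly, had 232, 321 and 244 CPM, then 506, 430 and 443 with IFNα, 479, 510 and 506 with CpG, and 245, 244 and 251 with both. Each stimulus alone gave higher levels than the combination, whose samples lay within the range of the unstimulated ones, and the interaction was -1.81 ± 0.16 (adjusted p = 1.47e-09).

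Ly6d, a surface marker of B-lineage cells, and Lynx1, a relative of the same protein family, were raised by CpG alone. Ly6d had 1091, 1271 and 1218 CPM in unstimulated cells, 1488, 1334 and 1429 with IFNα, 2623, 2265 and 2461 with CpG, and 1113, 957 and 1146 with both, and an interaction of -1.44 ± 0.16 (adjusted p = 6.02e-08, edgeR). Lynx1 had 133, 151 and 135 CPM with CpG against 43.7 to 99.1 in the 9 other samples, and an interaction of -2.16 ± 0.22. In both genes the CpG samples lay above all others. By the shape rule CpG alone was high for 4 genes, a class that fell to 0 without unstimulated sample 3, CpG sample 3 or CpG + IFNα sample 1, to 1 without IFNα sample 3 and to 2 without CpG sample 2. Its first member was Cd93, which encodes the AA4.1 antigen that the sort selected against, with 21.2 to 24.6 CPM in unstimulated cells, 13 to 23.1 with IFNα, 49.7 to 76.4 with CpG and 15.3 to 31.4 with both, and an interaction of -1.05 ± 0.36 (adjusted p = 0.0645). The call of Cd93 was lost in 5 of the 12 fits without 1 sample, and with library size only, no low-count filter, equal depth, no rRNA and mitochondrial genes, or DESeq2.

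CpG alone was low for 9 genes. Trim12a, a TRIM-family protein (chromosome 7, 104299894 to 104315466), had 146, 149 and 138 CPM in unstimulated cells, 167, 207 and 143 with IFNα, 22.1, 18.5 and 21.5 with CpG, and 90.5, 121 and 97.6 with both. IFNα raised it by 2.31 ± 0.17 (SE, log2) with CpG and its value without CpG was 0.27 ± 0.13, for an interaction of 2.04 ± 0.22 (adjusted p = 5.7e-08, edgeR). Cd200, an inhibitory ligand, and Rnf19b, a ubiquitin ligase, had 2.06 ± 0.31 and 1.66 ± 0.25, and H2-Q4, a class I molecule, had 1.28 ± 0.30. In each of the 4 genes the CpG samples lay below all others and IFNα was not called without CpG. H2-Q4 has close copies in the H2-Q cluster, so that its reads may be shared with them.

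IFNα alone was high for 24 genes. Pck2, the mitochondrial phosphoenolpyruvate carboxykinase, had 70.1, 73.8 and 67.1 CPM in unstimulated cells, 186, 207 and 182 with IFNα, 92.7, 66.3 and 65.4 with CpG, and 82.9, 66.2 and 74 with both, and an interaction of -1.47 ± 0.20 (adjusted p = 4.37e-06, edgeR). Dpp4, a surface peptidase, and Taldo1, an enzyme of the pentose phosphate route, followed with -1.40 ± 0.19 and -1.02 ± 0.16. Taldo1 fell under the required size in 4 of the 12 fits without 1 sample, and with DESeq2 size factors, library size only, no low-count filter, equal depth, or no rRNA and mitochondrial genes. Gbp2, an interferon-induced GTPase, had 11.8, 20.3 and 16.8 CPM, then 114, 76.6 and 103 with IFNα, 7.98, 9.98 and 11.5 with CpG, and 17.5, 21.7 and 18 with both, and an interaction of -1.62 ± 0.36. The interferon-stimulated response element was held by 4 of 21 promoters of this shape, and those of Gbp2 and Slfn9 are given with the match in capitals, which lies on the opposite strand.
Gbp2, chr3:142620589-142620628: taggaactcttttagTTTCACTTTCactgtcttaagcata
Slfn9, chr11:82991851-82991890: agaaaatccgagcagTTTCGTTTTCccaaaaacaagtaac
The mitochondrial rRNA mt-Rnr1 had this shape too, with 12347, 25938 and 7526 CPM with IFNα against 2466 to 6835 in the other 9 samples, in the group whose sample 2 had the most rRNA counts.

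Other genes below 0 were raised by IFNα in unstimulated cells and less, or not, in CpG-treated cells. Ms4a4c, of the same family as Ms4a6b, had 241, 319 and 334 CPM in unstimulated cells, 2104, 1923 and 2399 with IFNα, 404, 400 and 414 with CpG, and 717, 769 and 805 with both, and an interaction of -1.93 ± 0.17 (adjusted p = 5.38e-10, edgeR). Dnajc7, a co-chaperone, had 849, 854 and 1047 CPM with IFNα and 279 to 587 in the other 9 samples, and -1.64 ± 0.16. Id3, an inhibitor of E-protein transcription factors, had 105, 75.9 and 132 CPM, then 320, 392 and 379 with IFNα, 33.8, 33.5 and 33.4 with CpG, and 15.3, 19.3 and 22.6 with both, and -2.60 ± 0.25 (adjusted p = 3.97e-09). In Id3 IFNα samples were the highest and CpG + IFNα samples the lowest.

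ISGs departed in both directions on the log2 scale, with a median near 0. Of 60 tested, IFNα raised 59 without CpG (4.56% of all genes) and 57 with CpG (2.95%), with medians of 3.78 and 3.80. The interaction was above 0 for 10 of the 60 and below 0 for 5, against 3.09% and 3.17% of all genes, with a median of 0.10, or 0.06 with groups at the limit of detection set to that limit. The count below 0 was 2 without CpG sample 1, 3 without unstimulated sample 1, unstimulated sample 2 or IFNα sample 1, and 4 to 7 when any other sample was left out, while the count above 0 was 8 to 11. On the linear scale, in CPM, the picture differed. CpG alone had a median of -1.88 on these genes, and the gain in CPM from IFNα was larger with CpG for 2 of the 60, while 36 of 60 log2 interactions were above 0. Among called genes, 260 of the 291 above 0 and 290 of the 299 below 0 kept their sign on the linear scale.

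Isg15, the ubiquitin-like modifier, had 20, 8.56 and 23.8 CPM in unstimulated cells, 661, 462 and 687 with IFNα, 7.37, 6.42 and 8.99 with CpG, and 578, 483 and 574 with both. IFNα raised it by 5.06 ± 0.20 (SE, log2) without CpG and by 6.12 ± 0.21 with it, for an interaction of 1.06 ± 0.38 (adjusted p = 0.0737, edgeR), a call lost in 6 of the 12 fits without 1 sample. The IFNα and CpG + IFNα samples overlapped, and CpG alone lay at or below the unstimulated range. Usp18, which removes Isg15 from proteins and restrains the interferon receptor, had 445 to 565 CPM with IFNα and 295 to 356 with both, and an interaction of 0.32 ± 0.36 (adjusted p = 0.662). The promoter of Isg15 held 3 overlapping matches of the response element, shown in capitals from 5′ to 3′ on the gene's strand (GRCm38.p6).
Isg15, chr4:156200860-156200911: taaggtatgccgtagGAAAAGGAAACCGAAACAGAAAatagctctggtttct

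Individual ISGs departed in opposite directions. Zbp1, a sensor of Z-form nucleic acid, had 577, 482 and 549 CPM with IFNα, 9.21, 5.7 and 3.49 with CpG and 293, 305 and 296 with both, against 36.4, 32.1 and 40.6 in unstimulated cells, and an interaction of 1.75 ± 0.30 (adjusted p = 0.000111, edgeR). Isg20, an exonuclease, had 1.46 ± 0.23 and Rtp4, a chaperone of G protein-coupled receptors, had 1.47 ± 0.40. Ly6c2, a surface antigen, had 607, 587 and 775 CPM with IFNα but 22.9, 13.8 and 32.9 with both, against 9.1, 18.2 and 11.5 in unstimulated cells and 6.14, 2.14 and 2 with CpG, and an interaction of -2.99 ± 0.64 (adjusted p = 0.00191). Slfn5, of the Schlafen family, had 1904, 1372 and 1658 CPM with IFNα and 96.5, 83.8 and 90.5 with both, at an interaction of -1.04 ± 0.36. Ly6c2 has a near-identical neighbour, Ly6c1, with which its reads may be shared.

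**Figure D5:**
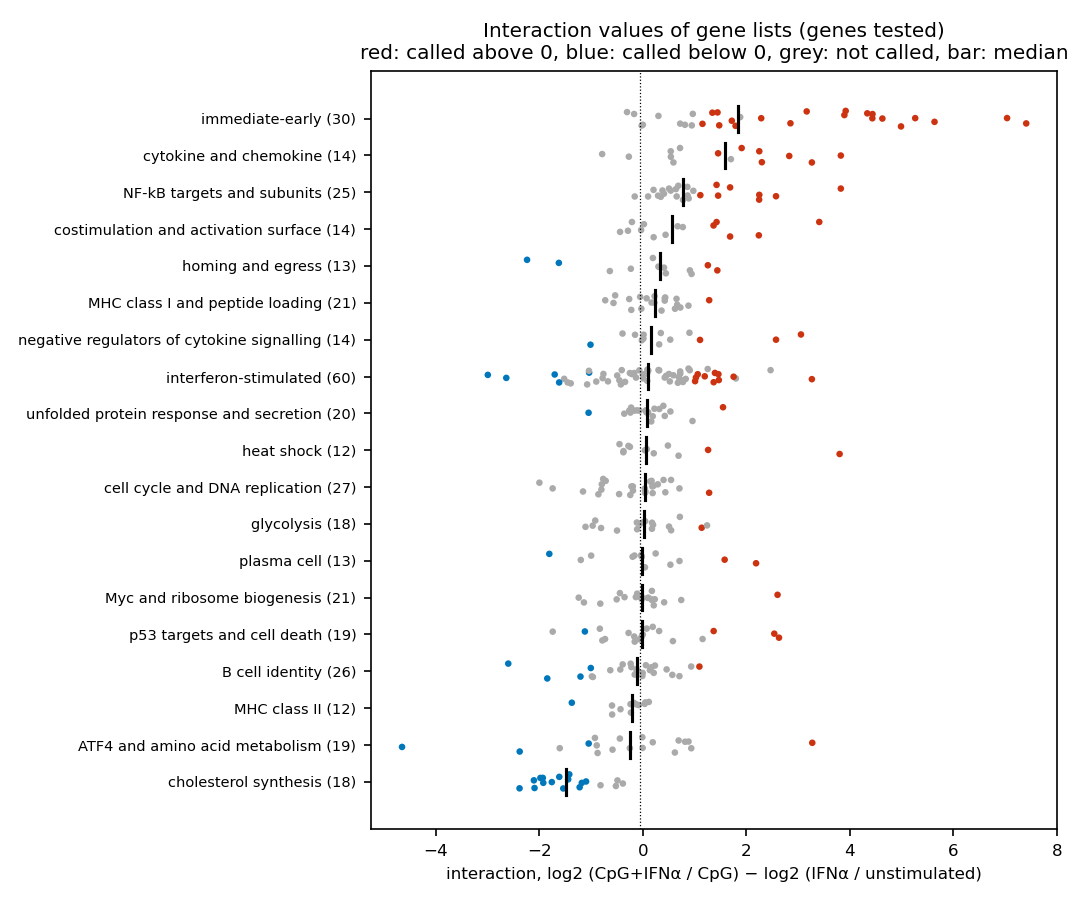
Interaction (x axis, log2) of each gene of 19 lists (points, red called above 0, blue called below 0, grey not called) with the list median (bar) and the median of all genes (dotted line), and the number of genes tested in brackets. The immediate-early, cytokine and NF-κB lists lie to the right with medians of 1.84, 1.58 and 0.78, and the cholesterol synthesis list lies to the left at -1.49.

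Of the B cell identity list, 4 of 26 genes were called below 0 (3.17% of all genes) and 1 above (3.09%), with a median of -0.12. Those below were Id3, Fcrla, an intracellular Fc receptor-like protein, at -1.85 ± 0.20, the kinase Btk at -1.20 ± 0.21, and Cd79b of the B cell receptor. Of 13 homing genes 2 were below 0 and 2 above, against the same shares of all genes. The sphingosine-1-phosphate receptors S1pr1, which carries lymphocytes out of tissue, and S1pr4 had -1.62 ± 0.47 and -2.24 ± 0.43. S1pr1 had 323, 387 and 325 CPM with IFNα against 118 to 283 in unstimulated cells and 4.63 to 17.1 with CpG. Ccr7 was among those above 0, at 1.44 ± 0.19.

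The other lists had few called members, and their counts are read against 3.09% of all genes above 0 and 3.17% below. Above and below 0 were 3 and 1 of 19 p53 and cell death genes, 3 and 1 of 14 negative regulators of cytokine signalling, 2 and 0 of 12 heat shock genes, 1 and 3 of 19 ATF4 and amino acid genes, 2 and 1 of 13 plasma cell genes, 1 and 1 of 20 genes of the unfolded protein response, 1 and 0 of 21 class I genes, and 0 and 1 of 12 class II genes. One gene was above 0 and none below in each of the Myc and ribosome (21 tested), cell cycle (27 tested) and glycolysis (18 tested) lists. Bcl2, which blocks mitochondrial cell death, had 1.37 ± 0.17 and its antagonist Bcl2l11 had -1.12 ± 0.23, in opposite directions.

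Cdkn1a, Tlr9 and Mtor, which the study names, had no called interaction. Cdkn1a, the cell cycle inhibitor p21, had 10, 2.14 and 13.2 CPM in unstimulated cells, 22.2, 28.6 and 23.7 with IFNα, 75.5, 135 and 95.4 with CpG, and 205, 294 and 268 with both. IFNα raised it by 1.51 ± 0.38 (SE, log2) without CpG and by 1.34 ± 0.16 with it, for an interaction of -0.17 ± 0.42 (adjusted p = 0.874, edgeR). The highest level thus lay in the combination without a called departure on the log2 scale. On the linear scale the gain from IFNα was larger with CpG, by 137 CPM. Tlr9, the receptor for CpG, had 209, 226 and 226 CPM, then 497, 441 and 578 with IFNα, 144, 190 and 151 with CpG, and 247, 263 and 263 with both, and an interaction of -0.52 ± 0.17 (adjusted p = 0.0507), below the required size. Mtor, the kinase of mTOR complexes, had 23.7 to 41.6 CPM in all 12 samples and an interaction of 0.12 ± 0.29 (adjusted p = 0.865).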

How the data were processed

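RNA of sorted FO B cells was counted by bulk RNA barcoding sequencing in 12 samples. Counts of unique UMIs per gene, not normalized, were deposited by the authors. The submitters' processing notes name UMI-tools 1.1.2, Trim Galore 0.6.7, HISAT2 2.2.1, GRCm38 and featureCounts 2.0.1, and Tlr9 was extended at its end. The annotation release is not given in the sources used here, and GENCODE M21 gave positions and intron overlaps. From the counts, edgeR 4.0.16 (R 4.3.3) computed TMM factors, applied filterByExpr, and fitted all 4 groups with glmQLFit and glmQLFTest (8 residual degrees of freedom). No block was used. On simulated counts the test recovered 100 of 100 interactions of 2 and 97 of 100 of -2 on the log2 scale, with 10 false calls among 9360 genes. The changed genes were drawn from the more abundant ones only. Interactions of other sizes, such as those near the threshold of 1, were not simulated. Named genes were, in each direction, the 8 with the smallest p among calls that held without any 1 sample, the 3 with the smallest p of each shape with 1 group apart, called members of described lists, and Cdkn1a, Isg15, Usp18, Tlr9 and Mtor. The genes, lists and tests were chosen with earlier results of these data known. UMI limits cover counting error only. Promoters were RefSeq sequences of GRCm38.p6. Alternatives were other normalizations, filters, tests and thresholds, equal depth, a replicate block and each sample left out. Some named genes and list members are not reported here.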

Additional observations from a re-analysis of the deposited data

Results flagged for a closer look

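The test of the interaction itself called 291 genes above 0 and 299 genes below 0 (edgeR's quasi-likelihood test, adjusted p under the threshold in each). The effect without CpG is taken against unstimulated cells, so that IFNα and culture cannot be told apart in it. Unstimulated cells alone stood apart high for 41 of these genes and low for 22. Among the named genes, the interactions above 0 on the log2 scale were Cd69 (3.41), Junb (4.34), Ppp1r15a (4.44), Jun (4.63), Kdm6b (2.91), Sik1 (3.65), Fos (7.41), Myc (2.60), Tnfaip3 (2.57), Pim3 (2.07), Trim12a (2.04), Cd200 (2.06), Rnf19b (1.66), Cflar (1.11), Ext1 (1.53), Isg15 (1.06).

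The interactions below 0 among the named genes were Ms4a6b (-2.58), Klhl6 (-2.60), Ms4a4c (-1.93), Mzb1 (-1.81), Dnajc7 (-1.64), Id3 (-2.60), Lynx1 (-2.16), Ly6d (-1.44), Cyp51 (-1.98), Sqle (-1.76), Pck2 (-1.47), Dpp4 (-1.40), Taldo1 (-1.02), Cd93 (-1.05), Nthl1 (-1.87), Suox (-1.61), Hdac9 (-2.02), Stk26 (-1.29), Ndufaf3 (-1.43). The calls of Nthl1 and Suox held in 5 and 6 of the 12 fits without 1 sample. Both calls were lost in the test against a fold change of 2. Groups had 3 samples each, so that no single sample was tested for standing apart.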

How the results depend on the processing

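Under 12 alternatives and 12 fits without 1 sample, the counts over all genes moved by over 1.5 times as follows, and the causes were not tested except that a stricter threshold passes fewer genes. The test against a fold change of 2 called 63 genes above 0 and 35 below, with 18 high and 2 low in unstimulated cells alone, 2 and 9 in IFNα, 0 and 2 in CpG, 1 and 1 in CpG + IFNα, and 10 above and 10 below both single stimuli. A log2 value over 2 left 96 above 0 and 59 below, with 22 and 7 for unstimulated cells, 5 and 12 for IFNα, 0 and 3 for CpG, 3 low in CpG + IFNα, and 8 above and 11 below both single stimuli. An adjusted p under 0.01 left 156 and 148, with 9 low in unstimulated cells, 16 low in IFNα, 0 high and 5 low in CpG, 3 low in CpG + IFNα, and 88 below both. Above 0 lay 64.3% of calls against a fold change of 2 and 61.9% over a log2 value of 2.

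Counts within the lists moved by over 1.5 times too. Of the cholesterol genes, 5 were below 0 in the test against a fold change of 2 and 3 over a log2 value of 2, and 4 NF-κB genes were above 0 under either. Of the cytokine list, 2 were above 0 against a fold change of 2 and 4 at an adjusted p under 0.01. Of the ISGs, 1 was above 0 and 2 below under the larger fold or log2 value. The ISGs below 0 were 3 with library size only, without the low-count filter, at an adjusted p under 0.01, at equal depth and without rRNA and mitochondrial genes. TEC genes above 0 were 6 against a fold change of 2 (3.82%, against 0.668% of all genes), 18 over a log2 value of 2 (11.5% against 1.02%), 12 at an adjusted p under 0.01 (7.64% against 1.65%) and 15 of 107 at equal depth (14% against 2.23%). All these shares are of TEC genes that passed the filter on low counts, which a single high group can satisfy. Without the filter the share was 3.37% against 1.8%.

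Counts drawn down to the smallest total called 408 genes, 289 of them among the 590, and gave 22 high and 13 low in unstimulated cells, 15 high in IFNα, 2 high in CpG and 5 high in CpG + IFNα, and turned the interaction of Usp18 to -0.068 and the interaction of Mtor to -0.19. DESeq2 called 408 genes, 400 of them among the 590, with 185 below 0, 13 low in unstimulated cells, 0 high in CpG and 4 low in CpG + IFNα. CpG alone was high for 2 genes with library size only, 2 without the low-count filter and 2 without rRNA and mitochondrial genes. Without the low-count filter CpG alone was low for 14 and CpG + IFNα lay above both single stimuli for 55, and 23 were above both with no group at the limit of detection (chosen after seeing the data).

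Without 1 sample, 248 to 391 genes were above 0 and 209 to 330 below. High and low in a single group were 32 to 74 and 19 to 32 for unstimulated cells, 20 to 27 and 23 to 43 for IFNα, 0 to 4 and 6 to 13 for CpG, and 3 to 5 and 7 to 16 for CpG + IFNα, with 31 to 40 above and 113 to 183 below both single stimuli. The interaction of Cdkn1a ran from -0.56 to 0.23, turning without unstimulated sample 2 (0.23) and without CpG sample 2 (0.06), and the interaction of Mtor from -0.027 to 0.29, turning without IFNα sample 2. Of 479 values of 40 named genes under the other alternatives, 425 kept direction and call, 52 lost the call and 2 turned. Without 1 sample, 449 of 480 kept both, 28 lost the call and 3 turned.

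With the replicate number as a block, 627 genes were called, 312 above 0 and 315 below, and 588 were shared with the fit without it. Same-numbered samples correlated between -0.065 and 0.205 over 18 pairs, 5 of them over 0.1, and 10 of 18 correlated best with their own number. Among the 9 pairs of stimulated groups, the range was 0.00865 to 0.205, with 5 over 0.1 and 8 best with their own number, a hint from the data. The deposited barcode list also repeats the numbers 1 to 3 in every group, without saying what they mark. Not every pair was over 0.1, so the numbers were not taken as pairs.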
